A study of Mus musculus with 9 samples.

Results

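The kidney enzymes that break down amino acids were described here as a set of 42 listed genes. The list rests on what the enzymes do and uses no threshold on measured values, but it was drawn up with earlier results of these data known. Of these, 40 were measured, among 17741 genes tested in all. The other 2, Amt and Haao, had no probe whose accession was matched to the symbol. All 40 were well above background on all 9 arrays, so none entered through the arm in which it was high.

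Whole left kidneys of male mice aged 10 weeks were profiled on single-colour arrays, each from 500 ng of total RNA. Every mouse, controls included, was an ISAM mouse, a model of anaemia from lack of erythropoietin. The labels give its genotype as Epo–/–::3.3K-Epo3'-Tg458, a null Epo genotype with a transgene, on a mixed strain background. No mouse with normal erythropoietin was part of the series. In the clip arm (n = 3) a vascular clip had closed the left ureter for 2 days. In the release arm (n = 3) the clip was taken off after those 2 days and had been gone for 12 days. The control arm (n = 3) joined 2 sham-treated mice and 1 untreated mouse, and no collection day is labelled for these mice. The labels do not say that the arrays of an arm came from separate mice, so p-values measure the spread between arrays, which may be partly technical.

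Amino acid breakdown removes the amino group and feeds the carbon skeleton into the citric acid cycle, mostly inside mitochondria. In the kidney these enzymes are concentrated in the proximal tubule, which takes filtered amino acids back up. The same cells make arginine from citrulline, take the first step of creatine synthesis, and release ammonia from glutamine and glutamate for acid excretion.

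Levels are log2 intensities relative to the 75th percentile of the same array, so 0 marks that percentile, and a difference of 1 is a 2-fold difference. The 75th percentile lay between 320 and 439 intensity units over the 9 arrays, 52.0% to 57.5% of probes were well above background, and no spot was saturated. The arrays lay on 3 slides, each with a clip, a release and a control array. The untreated array was on slide 3, whose scan date differed from that of slides 1 and 2. The untreated array minus the mean of both sham arrays lay between -0.67 (Sardh) and 0.77 (Kynu) over the 40 enzymes. An arm of 1 array has no spread of its own, so these differences do not show that sham and untreated kidneys were alike. Of 18 listed markers of the proximal tubule, the main epithelium of the labelled tissue, 17 were measured above background.

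The promoters of Hpd, Agxt2, Prodh2 and Bhmt are shown as the 250 bases before the start, on the gene's strand, from RefSeq on GRCm38.p6. Hpd is shown because its fitted change was the lowest of the set. The other 3 are shown because they were the members with a match to a motif of a tubule or liver nuclear factor, which stands in capitals (for Prodh2 as it reads on the other strand). The Hpd window lies at chr5:123182724-123182973 (minus strand), the Agxt2 window at chr15:10358283-10358532 (plus strand), the Prodh2 window at chr7:30493408-30493657 (plus strand) and the Bhmt window at chr13:93637759-93638008 (minus strand).
Hpd: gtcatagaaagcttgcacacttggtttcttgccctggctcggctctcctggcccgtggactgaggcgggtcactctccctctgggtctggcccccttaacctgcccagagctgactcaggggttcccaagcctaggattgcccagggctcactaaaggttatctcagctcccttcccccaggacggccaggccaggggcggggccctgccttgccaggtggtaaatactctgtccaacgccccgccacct
Agxt2: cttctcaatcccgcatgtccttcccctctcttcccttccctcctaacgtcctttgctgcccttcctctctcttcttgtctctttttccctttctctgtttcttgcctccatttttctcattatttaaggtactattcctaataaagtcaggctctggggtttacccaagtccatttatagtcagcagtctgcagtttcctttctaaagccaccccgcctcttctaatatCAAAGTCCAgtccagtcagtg
Prodh2: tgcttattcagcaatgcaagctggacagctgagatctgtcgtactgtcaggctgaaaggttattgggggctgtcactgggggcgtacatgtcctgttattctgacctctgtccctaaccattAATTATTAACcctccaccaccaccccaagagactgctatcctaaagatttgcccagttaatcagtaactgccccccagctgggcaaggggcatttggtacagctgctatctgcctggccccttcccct
Bhmt: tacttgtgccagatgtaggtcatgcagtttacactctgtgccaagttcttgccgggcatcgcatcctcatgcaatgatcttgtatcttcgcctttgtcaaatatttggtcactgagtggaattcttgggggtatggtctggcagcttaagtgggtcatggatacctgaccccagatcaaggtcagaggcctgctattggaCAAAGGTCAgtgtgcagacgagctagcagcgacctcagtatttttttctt

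Promoter windows were found for 38 of the 42 listed genes, 45 windows in all, with none for Cth, Kynu, Dbt and Asl. The letters searched for HNF4, a nuclear receptor of proximal tubule and liver cells, were CAAAGTCCA and CAAAGGTCA on both strands. They occurred in 6.67% of the 45 windows (3 windows, of Agxt2 and Bhmt) and in 0.807% of all 32851 windows of the same length. The letters for HNF1, a homeodomain factor of the same cells, were GTTAAT, then N, then ATT, on both strands, and they occurred in 2.22% of the members' windows (Prodh2) and 0.371% of all windows. The letters for ATF4, the factor that induces amino acid synthesis genes under amino acid shortage, were TGATGNAAT on both strands, with 0 of 45 windows against 0.816% of all windows. TATAAA, searched on both strands like the others, was found in 11.1% of the members' windows (Agxt2, Ddc, Got2 and Hgd) and 12.4% of all windows. The Agxt2 window printed above holds it as TTTATA, on the other strand. The windows of 1 gene can overlap, and a match of letters is a description of the sequence alone.

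The first comparison asked how the enzymes stood after 2 days of obstruction. Of the 40 enzymes, 39 were lower in clip than in control kidneys, 0 were higher and 1, Kynu, did not pass (limma, adjusted p). Over all genes tested, 27.5% were lower and 21.4% higher by the same rule. The median change was -1.57, a 2.97-fold lower level, against a median of -0.09 over all genes. In 34 of the 39 the fall was 2-fold or more, a size that 9.49% of all genes reached. In 11 it was 4-fold or more, as in 2.24% of all genes. In the same 39 genes every clip array lay below every control array, which held for 33.2% of all genes, and in Kynu every clip array lay above (25.4%). Whole kidneys were measured, so fewer cells of a type and less RNA per cell cannot be told apart.

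**Figure D1:**
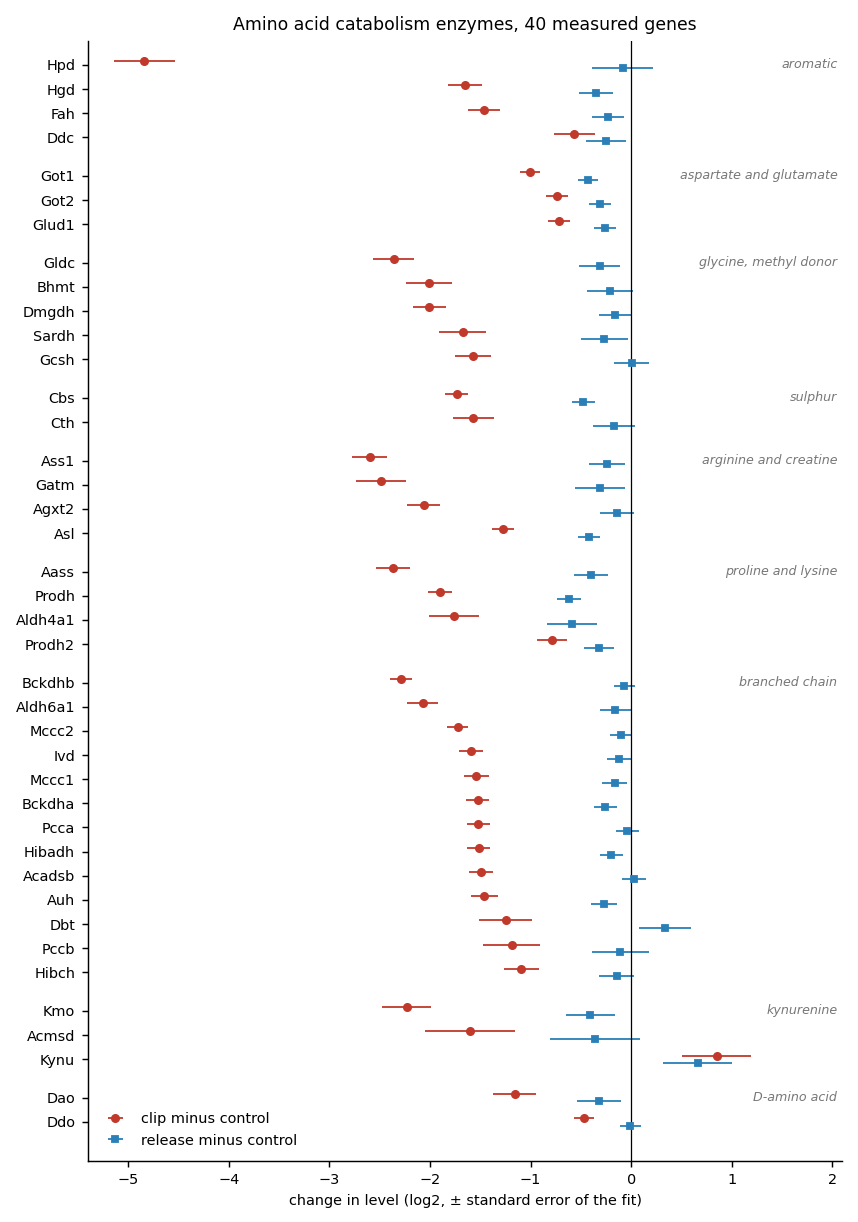
Change in level of the 40 measured enzymes (log2, horizontal axis) in clip kidneys minus control (red circles) and release kidneys minus control (blue squares), grouped by role, with the standard error of the fit as bars (n = 3 per arm). All red points but Kynu lie left of 0, down to -4.84 for Hpd, while the blue points lie between -0.62 and 0.66.

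The proximal tubule markers moved with the enzymes. All 17 measured markers were lower in clip kidneys, with a median change of -1.74. Their summed level, on the linear scale in units of the array's 75th percentile, was 264 to 346 in clip kidneys, 705 to 912 in release kidneys and 814 to 956 in control kidneys. The summed level of the 40 enzymes was 317 to 406 in clip kidneys, 933 to 1048 in release kidneys and 1140 to 1221 in control kidneys. Thick limb and distal tubule markers moved the same way, with 7 of 8 lower, a median change of -1.24 and a summed level of 155 to 189 in clip kidneys, 417 to 448 in release kidneys and 362 to 415 in control kidneys. Immune, stromal, injury and proliferation markers went the other way. Higher in clip kidneys were 9 of 10 measured macrophage and monocyte genes (of 11 listed) and 8 of 8 fibroblast genes. So were 8 of 8 injured tubule genes and 5 of 5 proliferation genes. Over all genes, 27.5% were lower and 21.4% higher by the same rule (limma, adjusted p). Itgam and Top2a were well above background on the clip arrays alone, so they entered through the arm in which they were high. Lyz2, Ccr2, Sox9 and Ccnb1 were not well above background on any control array. The macrophage sum was 28.7 to 33.1 in clip kidneys, 12.9 to 15.9 in release kidneys and 7.87 to 9.94 in control kidneys, and the fibroblast sum was 243 to 319 in clip kidneys, 92.0 to 114 in release kidneys and 56.1 to 72.4 in control kidneys. The part of these shifts in the enzyme changes was not tested. Among the remaining lists, 3 of 5 measured T and NK cell genes were higher and 3 of 5 podocyte genes were lower. Of the T and NK cell genes, Cd3g was not well above background on any control array. All 3 measured hepatocyte genes (of 6 listed) were lower, with a median of -2.45 and sums of 0.0986 to 0.197 in clip kidneys, 0.723 to 0.807 in release kidneys and 0.788 to 1.01 in control kidneys. Of these, Ttr and Apoa2 were not well above background on any clip array. Their falls are therefore bounds, of at least 6.09-fold and 1.85-fold. Endothelium had 1 of 5 genes in each direction, and urothelium had 1 of 4 higher. Of the 2 adrenal genes measured 0 passed (1, Hsd3b1, at an unadjusted p under 0.05). Hsd3b1 read -3.63 and -3.17 on the sham arrays and 0.38 on the untreated array. The adrenal sum was 0.111 to 0.157 in clip kidneys and 0.168 to 0.191 in release kidneys. It was 0.180 and 0.203 on the sham arrays and 1.40 on the untreated array.

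The tyrosine pathway held the member with the lowest fitted change. Hpd, which turns hydroxyphenylpyruvate into homogentisate, read -2.74, -3.74 and -3.12 in clip kidneys, 1.26, 2.16 and 1.25 in release kidneys, and 1.48, 1.74 and 1.71 in control kidneys. The clip arrays stood apart from all others, and the release and control arrays overlapped. The clip level was 28.6-fold lower than control (-4.84 ± 0.30, log2 difference ± standard error of the fit, n = 3 per arm here and below; limma, adjusted p = 9.18e-06). Its direction and call held with normexp background correction, a model-based alternative to the scanner's own subtraction, where the change was smaller (-3.01). Hgd and Fah, which carry the pathway on to fumarate and acetoacetate, fell by 1.65 and 1.46. Ddc, the decarboxylase that makes dopamine in tubule cells, read 2.94, 2.55 and 3.04 in clip kidneys, 3.19, 2.89 and 3.39 in release kidneys, and 3.11, 3.38 and 3.74 in control kidneys. Its arms lay close together, and clip and control did not overlap by a narrow margin. The fall of Ddc by 0.56 ± 0.20 passed with little room (limma, adjusted p = 0.0475) and did not pass with quantile normalization (-0.34, adjusted p = 0.203), with the sham arrays alone as control (-0.40, adjusted p = 0.136), with no filter on dim probes (adjusted p = 0.0868), with the clip and control arrays alone (adjusted p = 0.0625), or without sham 2, clip 1, clip 2 or release 1 (-0.61 to -0.42, adjusted p = 0.0654 to 0.156). A dimmer Ddc probe gave -0.44 with overlapping arms.

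The 3 aspartate and glutamate enzymes fell with a median change of -0.74. Got1, the cytosolic aspartate aminotransferase, read 2.73, 2.73 and 2.87 in clip kidneys, 3.32, 3.24 and 3.48 in release kidneys, and 3.70, 3.77 and 3.86 in control kidneys. The 3 arms did not overlap, with release between the other two. Got1 fell 2.01-fold (-1.0 ± 0.10; limma, adjusted p = 7.21e-05). Glud1, the glutamate dehydrogenase that releases ammonia in mitochondria, read 5.31, 5.13 and 5.36 in clip kidneys, 5.74, 5.62 and 5.81 in release kidneys, and 5.90, 5.90 and 6.14 in control kidneys. It too ran in 3 separate steps, each small. Its fall was 1.64-fold, and that of Got2, the mitochondrial aminotransferase, 1.67-fold.

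All 5 measured enzymes of glycine cleavage and methyl donor metabolism fell, with a median change of -2.01. Gldc, the decarboxylase of glycine cleavage, read -0.72, -1.36 and -0.91 in clip kidneys, 1.38, 0.92 and 0.85 in release kidneys, and 1.30, 1.57 and 1.21 in control kidneys. It fell 5.13-fold (-2.36 ± 0.20; limma, adjusted p = 3.88e-05), and release kidneys overlapped with control. Gcsh, the lipoyl carrier of the same complex, read -1.46, -1.93 and -1.46 in clip kidneys, 0.23, -0.02 and -0.33 in release kidneys, and 0.05, -0.15 and -0.03 in control kidneys. It had the smallest fall of the group, 2.97-fold (-1.57 ± 0.18; -0.87 with normexp). Dmgdh and Sardh, which demethylate dimethylglycine and sarcosine, fell by 2.01 and 1.68, and Bhmt, which remethylates homocysteine with betaine, fell by 2.01.

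Both enzymes of transsulphuration, the route that turns homocysteine into cysteine, fell. Cbs, the first, read 2.08, 1.81 and 2.00 in clip kidneys, 3.41, 3.19 and 3.08 in release kidneys, and 3.73, 3.74 and 3.63 in control kidneys. Release kidneys stood closer to control than to clip without overlapping either. Cbs fell 3.33-fold (-1.74 ± 0.12; limma, adjusted p = 1.17e-05). Cth, the second, read 2.23, 1.65 and 2.47 in clip kidneys, 3.40, 3.57 and 3.57 in release kidneys, and 3.46, 3.68 and 3.90 in control kidneys. It fell 2.96-fold, and its release and control arrays overlapped.

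The arginine and creatine genes had the lowest median change of the 9 role groups, -2.27 over 4 genes. Ass1, which joins citrulline to aspartate, read 5.38, 4.81 and 5.30 in clip kidneys, 7.71, 7.54 and 7.33 in release kidneys, and 7.84, 7.91 and 7.56 in control kidneys. It fell 6.06-fold (-2.60 ± 0.18; limma, adjusted p = 1.30e-05). Asl, which splits the product into arginine and fumarate, read 3.16, 3.11 and 3.26 in clip kidneys, 4.21, 4.03 and 3.87 in release kidneys, and 4.36, 4.51 and 4.49 in control kidneys. It fell less than its partner, 2.42-fold (-1.28 ± 0.11), and its 3 arms did not overlap. Gatm, which makes the creatine precursor guanidinoacetate, fell 5.60-fold (-2.49 ± 0.25). Agxt2, the mitochondrial aminotransferase that clears dimethylarginines and beta-aminoisobutyrate, fell 4.18-fold (-2.06 ± 0.16; -1.0 with normexp).

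In the proline and lysine group all 4 enzymes fell. Aass, the bifunctional enzyme that opens lysine degradation, read 4.29, 3.80 and 4.50 in clip kidneys, 6.27, 6.10 and 6.13 in release kidneys, and 6.49, 6.63 and 6.57 in control kidneys. It fell 5.16-fold (-2.37 ± 0.17; limma, adjusted p = 1.47e-05). Prodh, the proline oxidase of the inner mitochondrial membrane, read 4.09, 3.76 and 4.02 in clip kidneys, 5.38, 5.20 and 5.13 in release kidneys, and 5.87, 5.92 and 5.77 in control kidneys. Its arms lay in 3 separate bands, and its fall was 3.73-fold (-1.90 ± 0.12; limma, adjusted p = 8.67e-06). Prodh2, the hydroxyproline dehydrogenase, read 3.11, 2.80 and 2.80 in clip kidneys, 3.30, 3.41 and 3.41 in release kidneys, and 3.38, 3.85 and 3.83 in control kidneys. Its fall was the smallest of the group, 1.73-fold (-0.79 ± 0.15). Aldh4a1, which oxidises the product of both dehydrogenase routes, fell 3.39-fold (-1.76 ± 0.25), and its control arrays were spread, with 5.68 on sham 1, 4.92 on sham 2 and 4.86 on the untreated array.

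All 13 enzymes of branched chain amino acid breakdown fell by 2-fold or more, with a median change of -1.52. The branched chain ketoacid dehydrogenase commits the 3 amino acids to oxidation. Bckdhb, a subunit of its decarboxylase, read 0.85, 0.62 and 0.60 in clip kidneys, 3.04, 2.78 and 2.93 in release kidneys, and 3.07, 2.94 and 2.94 in control kidneys. It fell 4.90-fold (-2.29 ± 0.11; limma, adjusted p = 2.90e-06), while release and control arrays overlapped. The partner subunit Bckdha fell 2.88-fold and the acyltransferase core Dbt 2.38-fold. The Dbt call was lost with normexp (-0.43, adjusted p = 0.205).

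The later steps for leucine fell by similar sizes. The changes were -1.59 for the dehydrogenase Ivd, -1.54 and -1.73 for the methylcrotonyl-CoA carboxylase subunits Mccc1 and Mccc2, and -1.46 for the hydratase Auh. The isoleucine enzyme Acadsb fell by 1.49. In the valine branch Hibch, the hydroxyisobutyryl-CoA hydrolase, read 2.33, 2.15 and 2.79 in clip kidneys, 3.33, 3.23 and 3.56 in release kidneys, and 3.42, 3.44 and 3.69 in control kidneys. It had the smallest fall of the 13, 2.13-fold (-1.09 ± 0.17). The next valine enzymes, Hibadh and Aldh6a1, fell by 1.52 and 2.07, and the propionyl-CoA carboxylase subunits Pcca and Pccb by 1.52 and 1.19.

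The kynurenine branch of tryptophan breakdown held the exception. Kmo, which hydroxylates kynurenine, read -0.43, -1.25 and -0.14 in clip kidneys, 1.21, 1.22 and 1.24 in release kidneys, and 1.68, 1.66 and 1.54 in control kidneys. It fell 4.70-fold (-2.23 ± 0.24; -1.63 with normexp). Acmsd, which diverts the pathway away from NAD synthesis, fell 3.03-fold (-1.60 ± 0.44; limma, adjusted p = 0.0168), a call lost with normexp (-0.11, adjusted p = 0.764). Its clip arrays were uneven, at -3.16, -4.62 and -3.08.

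Kynu, the kynureninase that cleaves kynurenine and its hydroxy form, read -1.91, -2.48 and -2.27 in clip kidneys, -2.79, -2.23 and -2.19 in release kidneys, and -3.88, -2.76 and -2.56 in control kidneys. Every clip array lay above every control array, the closest pair being clip 2 and the untreated array, and sham 1 was the lowest of all 9. The difference of 0.85 ± 0.34 did not pass (limma, adjusted p = 0.0706). It passed as a rise with normexp (0.72, adjusted p = 0.0237) and with the sham arrays alone as control (1.10, adjusted p = 0.0337). On slides 1, 2 and 3 it was 1.97, 0.29 and 0.29. The macrophage and monocyte markers also stood highest in clip kidneys, with the sums given above, and their part in the Kynu values was not tested.

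Both peroxisomal oxidases of D-amino acids fell, with a median change of -0.81. Dao, which oxidises D-serine and other neutral D-amino acids, read 2.54, 2.11 and 2.15 in clip kidneys, 3.44, 3.14 and 2.74 in release kidneys, and 3.59, 3.58 and 3.1 in control kidneys. It fell 2.23-fold (-1.16 ± 0.22; limma, adjusted p = 0.00232). Ddo, which oxidises D-aspartate, read 0.56, 0.56 and 0.69 in clip kidneys, 1.18, 1.08 and 0.93 in release kidneys, and 1.15, 0.94 and 1.12 in control kidneys. It fell 1.38-fold (-0.47 ± 0.10; limma, adjusted p = 0.00563). By compartment, 26 of 26 mitochondrial enzymes fell with a median of -1.58, and 11 of 12 cytosolic enzymes fell, with a median of -1.58 over the 12.

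**Figure D2:**
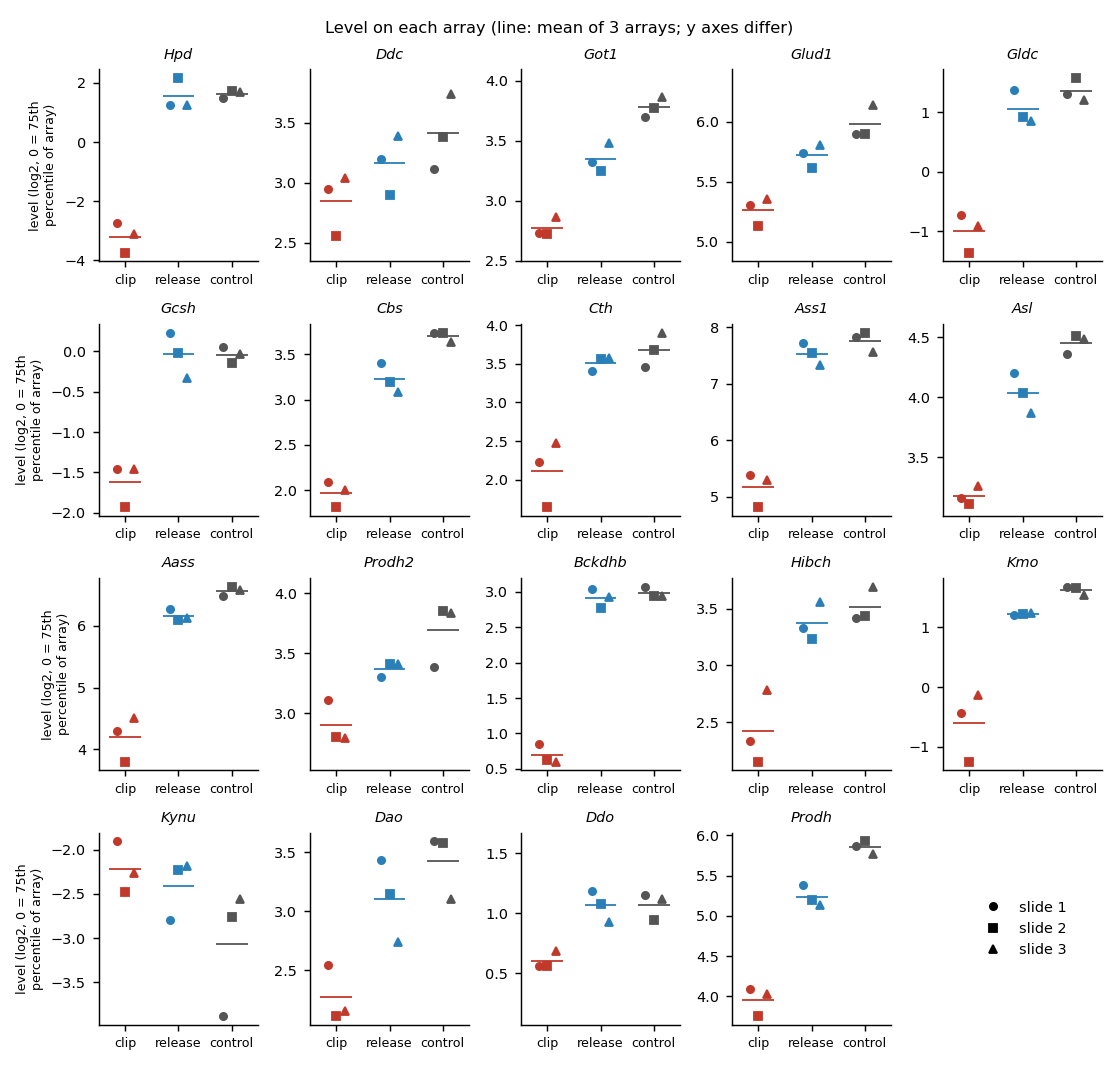
Level of 19 named enzymes on each array (log2, 0 is the array's 75th percentile, vertical axes differ), by arm, with the slide as the symbol and a line at the mean of 3 arrays. Clip values lie below control values in every panel but Kynu, and the release values of Got1, Glud1, Cbs, Asl, Aass, Kmo and Prodh lie between the other arms without overlapping either.

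The clip arrays were not alike across the set. Clip 2 was the lowest clip array for 34 of the 40 enzymes (85.0%), against 32.9% of all genes, while clip 1 and clip 3 were each lowest for 7.5%. The proximal tubule sum was also lowest on clip 2, at 346, 264 and 345 on clip 1, 2 and 3. Without clip 2, 38 of the 40 enzymes were lower in clip than in control kidneys (3988 of all 17741 genes), Ddc being the call lost. Within slides, 39 enzymes were lower in the clip array than in the control array on all 3 slides, as were 43.4% of all genes, and the median differences were -1.48, -1.80 and -1.36 on slides 1, 2 and 3. With slide as a block the count stayed at 39 (33.1% of all genes lower).

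**Figure D3:**
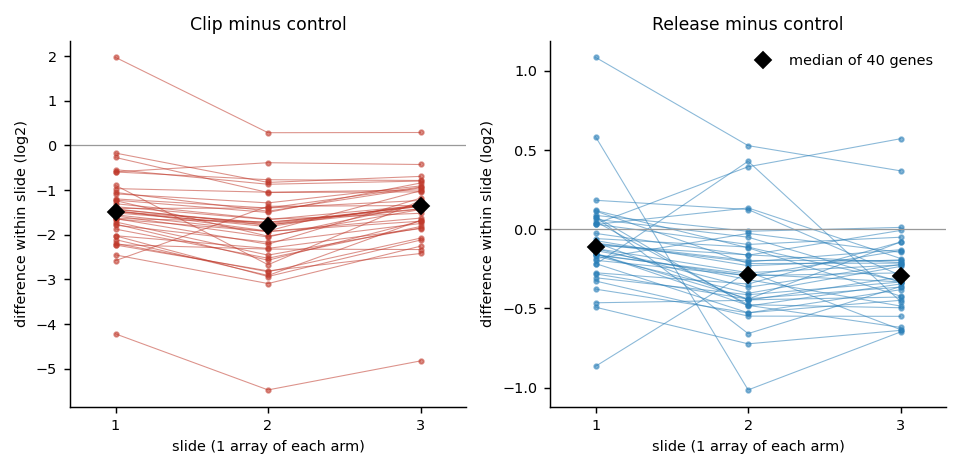
Difference within each slide (log2) of the 40 enzymes, clip minus control on the left and release minus control on the right, with 1 line per gene and black diamonds at the medians. The clip medians are -1.48, -1.80 and -1.36, the release medians -0.11, -0.29 and -0.30, and the vertical scales differ.

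A further probe passed the filter for 8 of the genes, Ddc, Prodh2, Aldh4a1, Bckdha, Bckdhb, Ivd, Mccc1 and Mccc2. All 8 pairs had the same sign in clip minus control, and the largest difference between probes of a gene was 0.26 on the log2 scale.

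The second comparison asked where the enzymes stood 12 days after the clip came off. Of the 40, 1 passed as lower in release kidneys against control and 0 as higher (limma, adjusted p; 9 lower and 0 higher at an unadjusted p under 0.05). Over all genes 0.372% were lower and 1.46% higher (9.13% lower and 12.4% higher unadjusted). The median change was -0.24, against -0.01 over all genes, with values between -0.62 (Prodh) and 0.66 (Kynu). The fitted change was below 0 in 36 of 40 genes and in 51.9% of all genes. In 15 of the 40 every release array lay below every control array, as in 13.6% of all genes. The size of the shift depended on the scaling. With quantile normalization the median change was -0.11, against 0.01 over all genes, and 32 of the 40 were below 0. At an unadjusted p under 0.05 (limma) 4 enzymes were then lower and 0 higher, against 3329 of all 17741 genes in either direction. The clip and release comparisons share the control arrays, so their values are given side by side and not set against each other.

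Prodh was the 1 enzyme called. With the levels given above its release level was 1.54-fold lower than control (-0.62 ± 0.12; limma, adjusted p = 0.0451), by 0.49, 0.72 and 0.64 on slides 1, 2 and 3. The call was not kept with quantile normalization (-0.49, adjusted p = 0.059), normexp (-0.58, adjusted p = 0.463), no filter on dim probes (adjusted p = 0.105), the sham arrays alone as control (adjusted p = 0.0569), the release and control arrays alone (adjusted p = 0.0882), or any 1 array left out (adjusted p = 0.05001 to 0.158). The next lowest adjusted values among the enzymes were those of Got1 (-0.43 ± 0.10; limma, adjusted p = 0.0631), Cbs (-0.48 ± 0.12; adjusted p = 0.071) and Asl (-0.42 ± 0.11; adjusted p = 0.0819). With slide as a block, 3 enzymes were lower, Prodh (adjusted p = 0.0375), Got1 (adjusted p = 0.0339) and Cbs (adjusted p = 0.0447), with 2.32% of all genes lower by that rule.

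Role groups differed in how far their release medians lay from 0, though these differences were not tested. The median release change was -0.49 for proline and lysine enzymes, -0.36 for kynurenine, -0.32 for sulphur, -0.31 for aspartate and glutamate, and -0.27 for arginine and creatine. It was -0.24 for aromatic, -0.21 for glycine and methyl donor, -0.16 for D-amino acid and -0.12 for branched chain enzymes. The kynurenine median is the value of Acmsd alone (-0.36 ± 0.44), in a group of 3 genes that ran from -0.41 (Kmo) to 0.66 (Kynu). The 3 aspartate and glutamate enzymes each had release arrays wholly below control arrays, with Got2 at -0.31 and Glud1 at -0.26. Of the 13 branched chain enzymes, 2 did, Bckdha at -0.26 and Hibadh at -0.20, a share near the 13.6% of all genes. Hpd was near control in release kidneys (-0.08 ± 0.30), as were Gcsh (0.01 ± 0.18) and Ddo (-0.01 ± 0.10), while Dbt was at 0.33 ± 0.26. Hpd, Gcsh, Ddo and Dbt did not pass, which does not show that they had returned to the control level. Within slides, 26 enzymes were lower in release than in control arrays on all 3 slides (28.7% of all genes) and 2 were higher (24.9%).

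The third comparison set release directly against clip kidneys. Of the 40, 37 were higher in release kidneys, 0 were lower and 3 did not pass (limma, adjusted p), against 23.5% higher and 17.4% lower over all genes. The median change was 1.35, a 2.54-fold higher level, and 29 rose 2-fold or more (7.58% of all genes). Release arrays lay wholly above clip arrays in 38 of the 40 (31.4% of all genes), and 39 were higher on all 3 slides (43.1%). Hpd was 27.0-fold higher (4.76 ± 0.30; limma, adjusted p = 1.51e-05), Ass1 5.15-fold (2.36 ± 0.18), Bckdhb 4.68-fold (2.23 ± 0.11) and Gatm 4.53-fold (2.18 ± 0.25). The smallest called rises were in Got2 (0.42 ± 0.11), Glud1 (0.46 ± 0.11), Ddo (0.46 ± 0.10) and Prodh2 (0.47 ± 0.15). With quantile normalization Got2, Glud1 and Prodh2 did not pass (limma, adjusted p = 0.158, 0.118 and 0.115). Got2 also did not pass without clip 2 or release 1. The Prodh2 call was also lost with slide as a block (adjusted p = 0.0523), and without clip 2, clip 3 or any 1 release array (adjusted p = 0.0615 to 0.110). The 3 that did not pass were Acmsd (1.24 ± 0.44; adjusted p = 0.054; -0.05 with normexp), Ddc (0.31 ± 0.20; adjusted p = 0.253) and Kynu (-0.19 ± 0.34; adjusted p = 0.693). Acmsd passed as higher with slide as a block (limma, adjusted p = 0.0375) and a filter on all 9 arrays (adjusted p = 0.043). It also passed without clip 3 (adjusted p = 0.0455) or release 2 (adjusted p = 0.0432). Without clip 2, 34 of the 40 were higher (3253 of all 17741 genes), as without release 1 (3478 of all genes).

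Other genes of amino acid metabolism, from lists drawn up by name, give the surroundings. Of 59 measured further degradation enzymes out of 67 listed, 44 were lower in clip than in control kidneys, 7 were higher and 8 did not pass, with a median of -1.16. Over all genes, 27.5% were lower and 21.4% higher by the same rule, here and for the lists below. The largest falls were in Aspa, which splits acetylaspartate (-2.75 ± 0.26), and Ido2, a tryptophan dioxygenase (-2.70 ± 0.14). Tdh, the threonine dehydrogenase, read -3.25, -3.32 and -3.39 in clip kidneys and was not well above background on any release or control array. Tdh thus passed the filter through the clip arrays alone. It was at least 1.95-fold higher in clip than in control kidneys, a bound that was not tested. Arg1, the cytosolic arginase, also entered through the clip arrays alone. It was at least 1.56-fold higher against control arrays that were likewise not well above background. Arg2, the mitochondrial arginase of kidney, rose 5.82-fold and was picked after its values were seen. It read 0.75, 0.65 and 0.74 in clip kidneys, -1.62, -2.20 and -1.52 in release kidneys, and -1.67, -2.38 and -1.43 in control kidneys. Its direction was opposite to that of Ass1 and Asl, which make the arginine it consumes.

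Regulators and cofactor enzymes moved less, with 7 of 12 lower, 1 higher and a median of -0.57. The enzymes of the pterin cofactor of aromatic hydroxylation, Pcbd1 and Qdpr, fell by 1.60 and 1.40, and Hlcs, which attaches biotin to the carboxylases, rose by 0.51 ± 0.10. Amino acid synthesis and polyamine genes went both ways, with 5 of 13 measured lower, 4 higher and a median of 0.29. Mthfd2, a mitochondrial folate enzyme, was at least 4.05-fold higher in clip than in control kidneys, where it was not well above background. Mthfd2 too passed the filter through the clip arrays alone. Aldh18a1, which starts proline synthesis, rose 3.98-fold against control arrays of which 2 of 3 were well above background. Gamt, which completes creatine, fell 3.48-fold, and Odc1, the first polyamine enzyme, fell 2.75-fold. In release against control kidneys 0 genes of these 3 lists passed (limma, adjusted p). At an unadjusted p under 0.05, 12 further degradation enzymes were lower and 5 higher, 4 regulators were lower and 3 synthesis genes were lower. Over all genes 9.13% were lower and 12.4% higher by that rule.

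**Figure D4:**
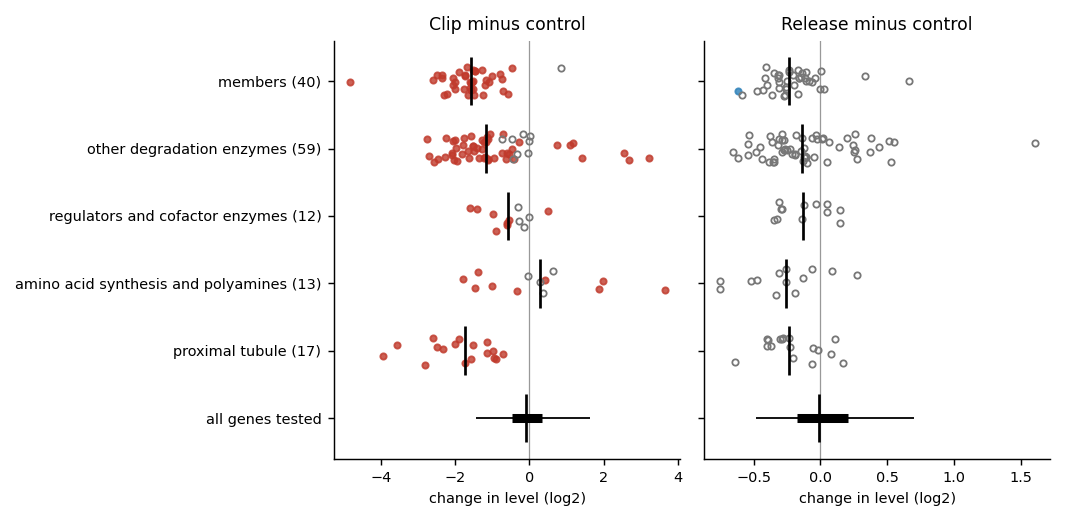
Change in level (log2) for the 40 enzymes, the other lists and the proximal tubule markers, clip minus control on the left and release minus control on the right. Filled points passed (limma, adjusted p), open points did not, black bars are medians, and the last row gives the median, quartiles and 5th to 95th percentiles of all genes. The enzymes and proximal tubule markers have clip medians of -1.57 and -1.74, while the synthesis list straddles 0 with a median of 0.29.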

How the data were processed

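Scanner files of 9 arrays were deposited. Per the file headers, Feature Extraction 10.7.3.1 gave each spot's intensity, background-subtracted and unscaled between arrays, with other columns of flags for background, saturation and outliers. A deposited table of log2 values was not used, since its rows did not follow the probes they name. Over the arrays the median correlation of its 8065 named rows with their own probe was 0.019. After centring, 0 lay within 0.02 (root mean square, log2), a limit that another normalization alone could exceed. Spots of a probe were averaged without outlier spots. Levels are log2 of intensity over the 75th percentile of its array. Symbols came from the RefSeq table (26690 of 41174 probes). Probes well above background on at least 3 arrays were kept, the brightest per gene, which gave 17741 genes. Of these, 13017 had a symbol and 4724 an accession alone. Each such accession was counted as a gene in the shares over all genes, though it need not be a distinct one. Arm means were fitted over all 9 arrays with limma 3.58.1 in R 4.3.3, with Benjamini-Hochberg adjustment per comparison at 0.05. Errors are standard errors of the fit unless given as SD, and the number of arrays limits the precision. Normexp (offset 50) used median signals, as the files hold no mean signals. Deviations from the arm means correlated at 0.161 to 0.281 between arrays of 1 slide and at -0.239 to 0.0029 between arrays of different slides. The main fit holds no term for the slide, and the fit with slide as a block is given as an alternative. Values on every array are given for the lowest and highest clip change of each role group and for members called in release against control, and at most 2 rises and 2 falls of each other list are named, apart from Arg2, which was chosen after its values were seen. Members and lists were chosen with earlier results of these data known.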

Additional observations from a re-analysis of the deposited data

How the results depend on the processing

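Quantile normalization, normexp, no filter or a filter on all 9 arrays, the mean of a gene's probes, slide as a block, the sham arrays alone as control, the 2 arms alone and each array left out were run for every enzyme. In clip minus control 37 to 39 enzymes were lower under all of them, and in release minus clip 34 to 38 were higher. Over all genes, 3107 (normexp) to 5879 (slide as a block) of 17741 were lower in clip minus control. In release minus clip 2270 (normexp) to 5217 (slide as a block) were higher. With no filter these counts were 4411 and 10515 of 32282 genes, and with a filter on all 9 arrays 4650 and 3971 of 15127. In clip minus control 1 enzyme, Kynu, was higher with normexp and with the sham arrays alone, and 0 to 1 on leaving out 1 array. In release minus control 0 were lower with quantile normalization, normexp, no filter, the sham arrays alone or the 2 arms alone, 3 in the fit blocked by slide, and 0 to 0 when any array was left out. Over all genes the counts lower were 27, 1, 1, 79 and 0 with the former settings, in that order. They were 412 in the fit blocked by slide and 0 to 79 when an array was left out. With the replicate number as a block 39 enzymes were lower in clip minus control (4837 of all 17741 genes) and 37 were higher in release minus clip (4369). With that number as a block 0 enzymes were lower in release minus control, against 43 of all genes (Prodh -0.59, limma adjusted p = 0.0731). The number marks the slide for the clip, release and sham arrays, where deviations of same-numbered arrays correlated at 0.161 to 0.269, but the untreated array has number 1 and lay on slide 3 (-0.209 with both clip 1 and release 1), so this block misplaces it and the block by slide is the one that follows the arrays. The sign turned for Acmsd in release minus clip with normexp (-0.054) and for Kynu without release 1 (0.0062), where leaving out 1 array gave -0.32 to 0.0062. The normexp setting adds 50 intensity units to every spot before the log, which by construction narrows log2 differences that involve low levels. It gave smaller changes for enzymes dim in clip kidneys, and the part of the offset in this was not tested. The 3 arrays per arm and the joined control arm limit what small differences can show.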
